A study of Homo sapiens with 8 samples.

Results

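The genes described here, with few exceptions, encode nuclear subunits of the mitochondrial respiratory chain, complexes I to IV, and of ATP synthase, complex V. They were chosen by symbol alone, as NDUF genes of the A, B, C, S and V series, the 4 SDH genes, 8 UQCR genes, 10 COX genes and genes whose names begin with ATP5, leaving out pseudogenes. This gave 79 of the 42125 genes in the count table of TFAP2C KD and 78 of the 23393 genes in that of UBA2 KD. Each table held 37 genes of complex I, 4 of complex II, 8 of complex III and 10 of complex IV, with 20 and 19 genes of complex V. Older names were used in the latter table, such as ATP5A1 for ATP5F1A and ATP5G1 for ATP5MC1. After renamed genes were joined, 76 were listed in both.

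mRNA-seq had been performed on HCT116, a human colorectal cancer line, in 8 libraries of 4 groups with 2 replicates each. All 8 came from cells that stably carried a Tet-On shRNA against SAE2, the SUMO-activating enzyme subunit also named UBA2. In the first experiment, the cells were transfected for 48 hrs with control siRNA or with TFAP2C siRNA (TFAP2C KD). In the second, they received DMSO (control) or doxycycline at 1 μg/mL (SAE2 kd in the labels, here UBA2 KD) for 5 days. The labels do not say whether replicates came from separate cultures, so the p-values measure only the spread between these libraries, which may be technical. TFAP2C is a transcription factor of the AP-2 family, and the study asked how SUMOylation and TFAP2C act on enhancers and on gene expression.

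As background, complex I takes electrons from NADH and complex II from succinate, and both pass them to ubiquinone. Complex III hands them on to cytochrome c and complex IV to oxygen, while complexes I, III and IV pump protons that drive the synthesis of ATP by complex V. Except for complex II, each complex combines subunits made in the cytosol with subunits encoded by mitochondrial DNA. Expression of the nuclear genes is known to be coordinated through factors such as NRF1, the ETS factor GABP and YY1, whose sites are common in their promoters.

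The libraries held between 18213739 and 24465109 counts. TFAP2C itself fell to 3.46 and 4.30 CPM (counts scaled to the library size) in TFAP2C KD from 18.9 and 20.5 CPM with control siRNA (log2 fold change -2.34, adjusted p = 7.67e-06, edgeR). UBA2 was at 147 and 153 CPM in the libraries labelled UBA2 KD and at 162 and 146 CPM in their controls. Its log2 fold change was -0.036 (95% confidence interval -0.15 to 0.078), so a fall of UBA2 mRNA was not detectable, and these are called the libraries labelled UBA2 KD. The 2 TFAP2C KD libraries stood further apart than any other replicates. The chi-square per degree of freedom between their counts was 8.38, against 2.47 to 2.68 for the other 3 groups. Of the epithelial markers, EPCAM, KRT8, KRT18, KRT19, CDH1 and CDX2 were expressed in every library, while VIL1 did not exceed 0.144 CPM. The 7 epithelial markers summed to between 2804 and 3404 CPM in the first experiment and between 2151 and 2500 CPM in the second, each time with both knockdown libraries above both controls. In the first, the higher sum came from KRT8, KRT18 and KRT19, while CDH1 was below both controls (124 and 125 CPM, then 120.3 and 122 CPM), EPCAM had a log2 fold change of -0.0016 and none of the 6 expressed passed the test. In the second, EPCAM, KRT8 and KRT18 rose by log2 fold changes of 0.15, 0.18 and 0.25 (adjusted p = 0.0414, 0.00405 and 7.79e-05, edgeR). The part of these markers in the results was not tested. The 8 markers of leukocytes, endothelium, fibroblasts and hepatocytes summed to at most 49.7 CPM, nearly all from COL1A1, and CD3E and DCN were at or near 0.

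Of the 81 genes that the tables list between them, 65 were matched to a RefSeq promoter window, 300 bases on GRCh38.p14 that end 50 bases past the gene's start. Those not matched include ATP5F1B, ATP5F1D, ATP5MC3, ATP5MF, ATP5MF-PTCD1, ATP5MGL, ATP5S, COX6C, NDUFA4, NDUFB5, NDUFB9, NDUFC2, NDUFS5, SDHC and UQCRB. The first window listed for a gene was used. The 5 motifs were searched on both strands, NRF1 (GCGC and TGCGC with any base between them), ETS (CCGGAAG), YY1 (AAGATGG), AP-2 (GCCNNNGGC) and the E-box (CACGTG), and no match to one overlapped a match to another in these 65 windows. The 5 promoters shown are, for each complex, the gene with the most kinds of motif in the 250 bases before its start, with ties broken by the smaller p in TFAP2C KD. Capitals mark the matches.
NDUFA3: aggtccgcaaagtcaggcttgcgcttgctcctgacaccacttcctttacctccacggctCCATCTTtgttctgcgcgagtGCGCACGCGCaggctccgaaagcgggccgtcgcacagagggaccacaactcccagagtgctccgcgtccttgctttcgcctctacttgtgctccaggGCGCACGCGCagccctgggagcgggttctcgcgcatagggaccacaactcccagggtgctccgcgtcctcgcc
SDHD: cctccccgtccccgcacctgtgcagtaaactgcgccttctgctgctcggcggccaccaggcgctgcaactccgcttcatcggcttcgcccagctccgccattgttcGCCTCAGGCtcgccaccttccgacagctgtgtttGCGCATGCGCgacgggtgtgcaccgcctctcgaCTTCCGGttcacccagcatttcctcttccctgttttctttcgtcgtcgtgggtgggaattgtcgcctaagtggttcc
UQCR11: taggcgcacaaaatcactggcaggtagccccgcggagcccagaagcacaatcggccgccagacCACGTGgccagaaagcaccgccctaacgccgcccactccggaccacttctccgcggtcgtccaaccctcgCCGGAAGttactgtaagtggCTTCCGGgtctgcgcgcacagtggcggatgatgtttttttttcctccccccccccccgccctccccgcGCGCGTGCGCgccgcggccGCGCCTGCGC
COX8A: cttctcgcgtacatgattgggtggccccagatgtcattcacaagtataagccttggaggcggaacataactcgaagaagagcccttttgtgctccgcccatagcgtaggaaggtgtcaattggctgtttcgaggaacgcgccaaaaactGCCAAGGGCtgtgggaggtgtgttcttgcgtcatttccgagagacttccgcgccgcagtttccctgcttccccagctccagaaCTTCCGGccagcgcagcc
ATP5MPL: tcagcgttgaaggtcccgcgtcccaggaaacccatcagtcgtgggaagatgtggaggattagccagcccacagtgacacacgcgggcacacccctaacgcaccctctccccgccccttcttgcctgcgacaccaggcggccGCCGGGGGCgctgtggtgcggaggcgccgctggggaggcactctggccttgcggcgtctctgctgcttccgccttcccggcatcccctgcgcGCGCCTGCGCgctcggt
The NDUFA3 stretch (chr19:54102605-54102854, plus strand) held a YY1 match 191 bases before the start and NRF1 matches at 170 and 73 bases, with the distance given to the first base of the match. SDHD (chr11:112086623-112086872, plus strand) had an AP-2 match at 144, an NRF1 match at 110 and an ETS match at 77 bases before the start. In UQCR11 (chr19:1605463-1605712, minus strand), an E-box lay at 187, ETS matches at 117 and 97, and NRF1 matches at 29 and 10 bases. COX8A (chr11:63974370-63974619, plus strand) had an AP-2 match at 101 and an ETS match at 18 bases. ATP5MPL (chr14:103921530-103921779, minus strand) had an AP-2 match at 109 and an NRF1 match at 17 bases.

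NRF1 matches were found for 16 of the 65 respiratory chain genes, which is 24.6%, against 6.28% of all 27305 genes with a window and 11.4% of the 10644 of these that were tested in TFAP2C KD. ETS matches stood in 30.8% of the members, 10.7% of all genes and 18.7% of the tested genes. YY1 matches stood in 24.6%, 6.06% and 7.55%, respectively. The AP-2 motif was in 12 members, or 18.5%, with 23.0% of all genes and 32.6% of the tested genes. E-boxes were in 10.8% of the members and in 7.43% and 10.1% of the other sets. Each share is a description of these letters in these windows, and a match is not a bound site.

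**Figure D1:**
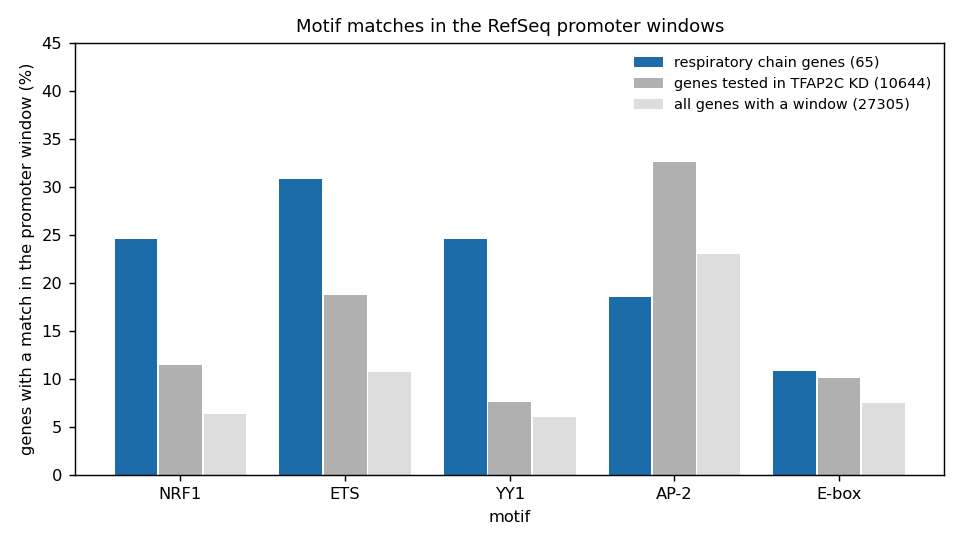
Share of genes with a motif match in the RefSeq promoter window, in percent, for the respiratory chain genes (65), the genes tested in TFAP2C KD (10644) and all genes with a window (27305). The bars of the respiratory chain genes stand above both others for NRF1, ETS and YY1, and below both for AP-2.

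Levels of different genes were compared per length in the 2 control libraries of the UBA2 experiment, whose table gives RefSeq gene lengths. ATP5B, the catalytic beta subunit of ATP synthase, was highest with 630 ± 5.02 CPM per kilobase (SD, n = 2). The next were COX8A, a small membrane subunit of complex IV, with 235 ± 8.60, ATP5A1, the alpha subunit of ATP synthase, with 230 ± 3.13, and COX7C with 217 and 242 CPM per kilobase in the 2 libraries. These 3 did not differ beyond the spread of their replicates, while ATP5B lay above them in both libraries. Complex IV had the highest median level, 162 CPM per kilobase, and its 10 genes ranged from 96.4 to 235. The medians were 45.5 for complex I, 37.9 for complex II, 64.8 for complex III and 73.2 for complex V. SDHB, the iron-sulfur subunit of complex II, reached 121 CPM per kilobase, while SDHA, its flavoprotein, had 34.0 and the membrane anchors SDHD and SDHC had 41.7 and 12.02. ATP5S and ATP5E were lowest, with 1.48 and 1.54 CPM per kilobase. ATP5S is not a subunit of the enzyme proper, and the reads of ATP5E may be shared with a readthrough gene, as described next. Of the 75 neighbouring pairs in this order, 38 had overlapping values. The order depends on the gene lengths used, which differ between the tables. With control siRNA, ATP5F1B had 382 CPM per kilobase. ATP5F1A, listed there with 10.9 kb and not 2.90 kb, had 48.4, and COX7C had 62.2.

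**Figure D2:**
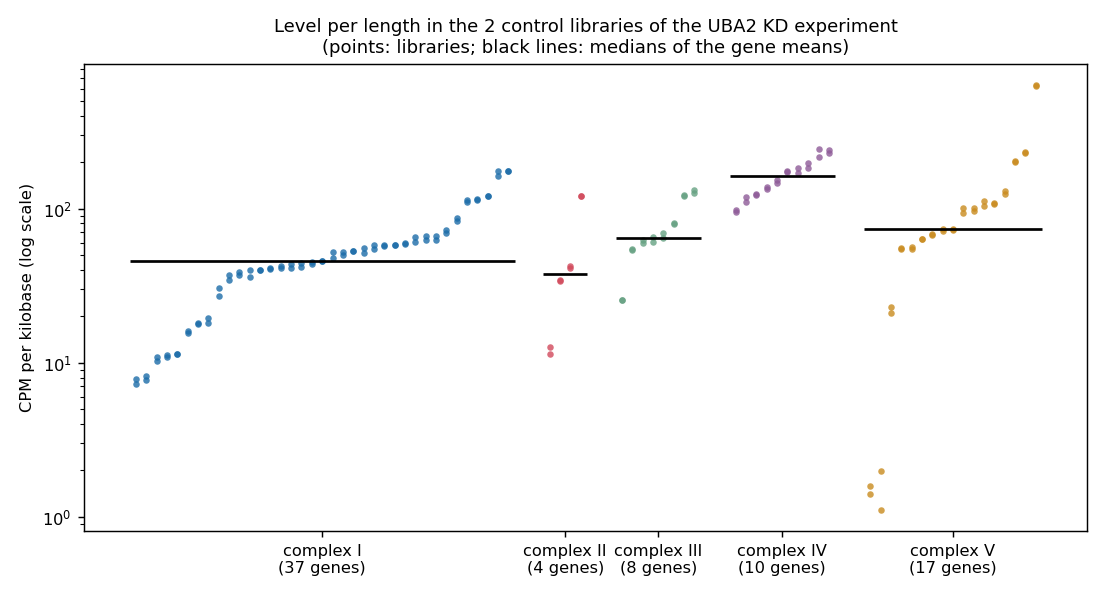
CPM per kilobase on a log scale for each of the 76 genes tested, in the 2 control libraries of the UBA2 experiment, sorted within complexes I to V. Points are libraries and black lines are the medians of the complexes, of which that of complex IV, 162, is the highest and that of complex II, 37.9, the lowest.

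The control level of a gene could be set side by side in both experiments, although the tables were counted on different annotations and scaled separately. Of the 76 genes joined, 63 had mean control levels within 2-fold of each other. In the table of TFAP2C KD, 9 lay over 2-fold lower. NDUFA9, an accessory subunit at the joint of the complex I arms, was listed at 0 counts in all 4 libraries of that table, whereas the other table gave between 1358 and 1586 counts. NDUFA7 had 1.00 CPM against 24.9 CPM, and NDUFV2, an iron-sulfur subunit of the NADH-oxidizing module, had 3.91 CPM against 59.4 CPM. SDHA had 22.4 CPM against 114 CPM. The others were SDHD, NDUFC2, UQCR11, ATP5MG and NDUFA5. Another 2 lay over 2-fold higher, ATP5F1E with 78.3 CPM against 0.672 CPM (named ATP5E there) and SDHC with 97.8 CPM against 34.5 CPM. Of the 20 genes whose row overlapped another row on the same strand in the table of TFAP2C KD, 8 (40.0%) were over 2-fold lower there, against 1 of the 56 (1.79%) without such an overlap. NDUFA9 was overlapped by AC005832.4 and AC005833.1, NDUFA7 by AC010323.1, NDUFV2 by AP005263.1, SDHA by AC021087.5 and NDUFC2 by the readthrough gene NDUFC2-KCTD14. The overlap of NDUFC2 was also present in the table of UBA2 KD, where 9 of the 76 joined genes had an overlapped row. ATP5E was overlapped by the readthrough gene SLMO2-ATP5E in the table of UBA2 KD. The part of these overlaps in the levels was not tested, and the level of such a gene was therefore compared only within a table.

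**Figure D3:**
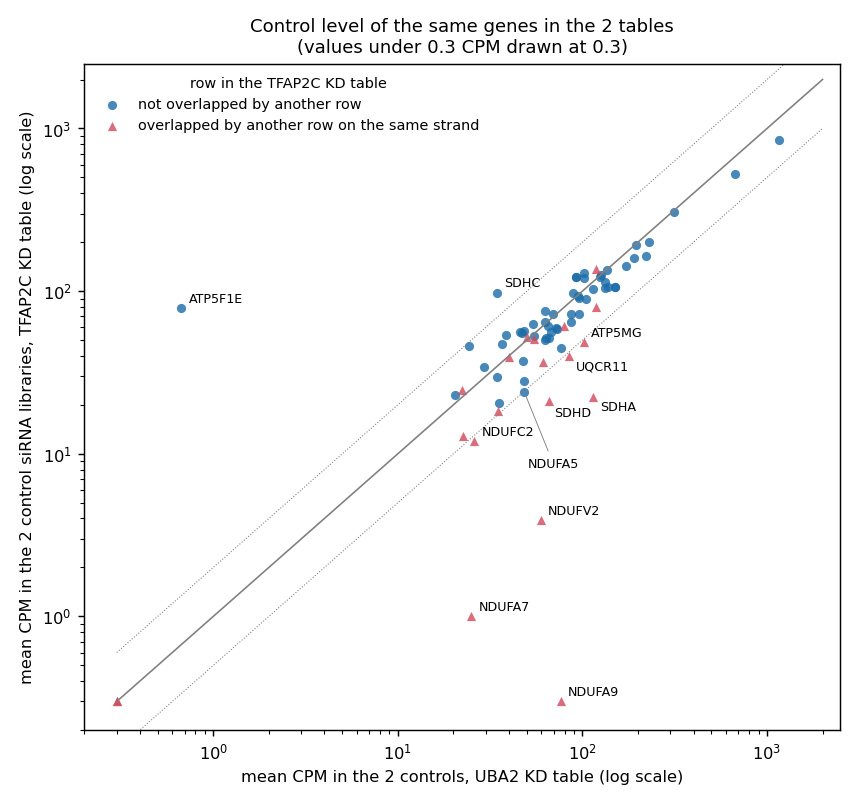
Mean CPM of the 2 controls in the table of UBA2 KD (x axis) and of the 2 control siRNA libraries in the table of TFAP2C KD (y axis), both on log scales, for the 76 genes joined. The solid line marks equal levels and the dotted lines 2-fold differences, and of the 9 genes named below the lower dotted line all but NDUFA5 are drawn as triangles, which mark rows overlapped by another row on the same strand.

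In TFAP2C KD, most respiratory chain genes lay slightly above control siRNA, none of them past the threshold. Of the 76 members tested, 65 (85.5%) had a log2 fold change above 0, against 49.1% of the 14991 genes tested in all. The median was 0.084, where that of all genes was -0.0038. At an adjusted p under 0.05, 0 members were called, in edgeR's quasi-likelihood test as well as in the Wald test of DESeq2, with a background of 0.74% of all genes in the former, 0.26% higher and 0.48% lower. At an unadjusted p under 0.05, 8 members were higher and 0 lower, where 5.68% of all genes were higher and 6.92% lower. Both TFAP2C KD libraries lay above both controls for 39 members and below both for 2, NDUFV2 and NDUFA7. The background of each is 22.4% of all genes, or 44.7% for groups that did not overlap in either direction. As these are bulk samples, a change in some of the cells and a change of the RNA per cell cannot be told apart. The members took 0.705% and 0.699% of the counts with control siRNA and 0.757% and 0.712% in TFAP2C KD.

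The size of this shift differed between the replicates. TFAP2C KD replicate 1 lay above both controls by medians of 0.142 and 0.140 on the log2 scale, and replicate 2 by medians of 0.035 and 0.039. The 2 TFAP2C KD libraries thus differed from each other by a median of 0.104, more than the median change of 0.084, while the 2 control siRNA libraries differed by 0.0037. Without TFAP2C KD replicate 2, the median log2 fold change of the members was 0.14, and without TFAP2C KD replicate 1 it was 0.042. In each case only 1 knockdown library remained. Precision was limited by the 2 libraries in each group. The 95% confidence interval of the log2 fold change lay within -0.5 and 0.5 for 74 of the 76 members and within -0.25 and 0.25 for 31.

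**Figure D4:**
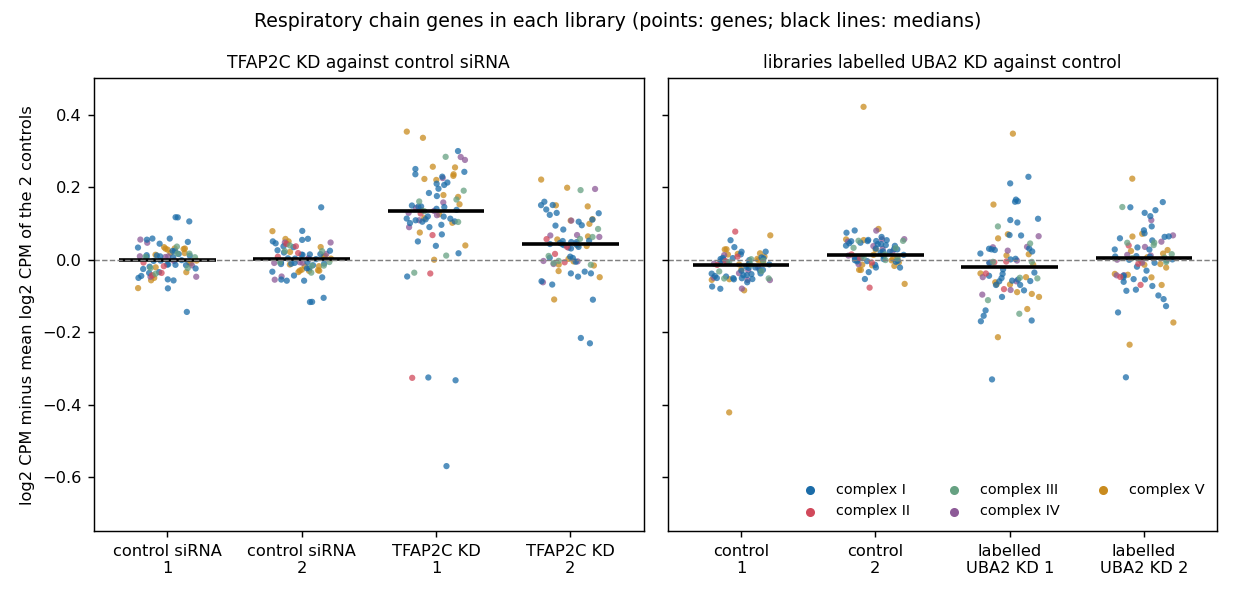
Log2 CPM of each respiratory chain gene tested, relative to the mean of the 2 controls, in the 4 libraries of each experiment. Points are genes, colored by complex, and black lines are medians, which lie at 0.135 and 0.042 in the 2 TFAP2C KD libraries and at -0.020 and 0.0049 in the libraries labelled UBA2 KD.

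For complex I, 30 of 36 members tested lay above 0 in TFAP2C KD, with a median of 0.092. NDUFV3, an accessory subunit near the flavin site, had 57.0 and 56.0 CPM with control siRNA and 67.2 and 61.5 CPM in TFAP2C KD. Its groups did not overlap, and its log2 fold change was 0.19 (adjusted p = 0.347, edgeR). NDUFS6, a zinc-binding accessory subunit, had 49.0 and 50.7 CPM and then 59.0 and 54.5 CPM, also without overlap, and a log2 fold change of 0.19 (adjusted p = 0.361, edgeR). These were the 2 members of the complex with an unadjusted p under 0.05. NDUFV2 had the largest difference in the complex, with 4.23 and 3.60 CPM in the controls and 2.63 and 3.36 CPM in TFAP2C KD. It was lower in both knockdown libraries, by a log2 fold change of -0.40 (95% confidence interval -0.80 to 0.0033, adjusted p = 0.397, edgeR). Its value rests on only 63 to 103 counts per library, in the row described above as overlapped by another. NDUFS1, the largest core subunit, had 133.9 and 134 CPM in the controls and 143 and 138 CPM in TFAP2C KD, and NDUFV1, which binds the flavin and NADH, had 136 and 139 CPM and then 159 and 141 CPM. Both lay above their controls in both libraries, with log2 fold changes of 0.065 and 0.12. NDUFA4, counted here with complex I by its name but known as a subunit of complex IV, had 52.7 and 54.2 CPM and then 59.2 and 59.3 CPM. Its 2 knockdown libraries agreed closely, and the log2 fold change was 0.15 (adjusted p = 0.435, edgeR).

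Complex II showed no common direction in TFAP2C KD, with 2 of its 4 genes on each side of 0 and a median of 0.015. Of the 4, SDHA and SDHD are rows overlapped by another on the same strand, SDHD by AP002884.3. Both were over 2-fold lower in the controls here than in the table of UBA2 KD, SDHD with 21.2 CPM against 65.6 CPM. SDHD, a membrane anchor, had 21.1 and 21.3 CPM in the controls and 16.9 and 22.0 CPM in TFAP2C KD. The knockdown libraries lay on either side of the controls, and the log2 fold change was -0.12 (95% confidence interval -0.39 to 0.14). SDHA had 22.1 and 22.7 CPM in the controls and 23.5 and 23.0 CPM in TFAP2C KD, with a log2 fold change of 0.052. SDHB had 103 and 109.9 CPM and then 116 and 108 CPM, which overlapped, with a log2 fold change of 0.072.

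Complexes III and IV lay mostly above 0. In complex III, 7 of 8 genes did so, with a median of 0.081. UQCRFS1, the Rieske iron-sulfur protein, had 52.6 and 50.0 CPM in the controls and 62.4 and 53.3 CPM in TFAP2C KD. Both knockdown libraries were higher, replicate 1 by far more, and the log2 fold change was 0.17 (95% confidence interval -0.019 to 0.37). UQCRC1, a core protein, overlapped, with 188 and 199 CPM in the controls and 212 and 193 CPM in TFAP2C KD. In complex IV, all 10 genes tested lay above 0, with a median of 0.094 and a range of 0.037 to 0.24. COX8A (chromosome 11, 63974620 to 63976543 on GRCh38) had 79.0 and 80.7 CPM in the controls and 97.2 and 91.4 CPM in TFAP2C KD. Its groups lay well apart. Its row was overlapped by AP000721.1 on the same strand, with a mean of 79.9 CPM in the controls against 118 CPM in the table of UBA2 KD. The log2 fold change was 0.24 with a 95% confidence interval of 0.082 to 0.40, and the adjusted p = 0.196 of edgeR missed the threshold. COX5A, a subunit of the matrix side, had 99.1 and 106 CPM and then 124 and 107 CPM, a log2 fold change of 0.17. COX4I1, the largest nuclear subunit of the complex, had 304 and 305 CPM and then 339.7 and 303 CPM, so that only replicate 1 lay above its controls.

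Complex V had the highest median in TFAP2C KD, 0.13, with 16 of 18 genes above 0 and 5 at an unadjusted p under 0.05. This rank rested on TFAP2C KD replicate 1. Without that library, the medians of complexes IV and V were both 0.048. ATP5MC1 (chromosome 17, 48892765 to 48895871 on GRCh38), one of 3 genes for subunit c of the proton-driven rotor, had 71.1 and 79.3 CPM with control siRNA and 95.9 and 87.5 CPM in TFAP2C KD. Both knockdown libraries lay above both controls, and its log2 fold change of 0.29 (standard error 0.082, 95% confidence interval 0.11 to 0.47) was the highest value among the 76 members. The adjusted p = 0.170 of edgeR missed the threshold. It was 0.0475 in edgeR when no filter on low counts was applied, where 398 genes were called in all, against 111 with the filter. The adjusted p was 0.240 in edgeR with the replicate number as a block and 0.290 in the Wald test of DESeq2. ATP5MC2 and ATP5MC3, which encode the same mature protein, had log2 fold changes of 0.18 and 0.15, each with both knockdown libraries above both controls. ATP5MPL, a small proteolipid bound to the membrane part, had 58.2 and 55.5 CPM and then 67.9 and 65.2 CPM, a log2 fold change of 0.23 (adjusted p = 0.236, edgeR). ATP5PO, the stalk subunit that links the catalytic head, had 45.4 and 44.3 CPM and then 52.7 and 49.7 CPM. ATP5PB, subunit b of the same stalk, had 108 and 104 CPM and then 123 and 114 CPM, without overlap. The catalytic subunits had smaller values. ATP5F1A had 539 and 516 CPM and then 596 and 542 CPM, a log2 fold change of 0.11, and ATP5F1B had 846 and 858 CPM and then 947 and 842 CPM, which overlapped. The reads of the subunit c genes and of the many members with processed pseudogenes may have been split between copies, depending on how reads with several matches were counted, which is not given in the sources used here.

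Members with and without an AP-2 match in the promoter window were also set side by side. The 12 with a match had a median log2 fold change of 0.12 in TFAP2C KD, with 8 above 0, and the 51 without a match had a median of 0.079, with 46 above 0. The 12 were ATP5F1A, ATP5MPL, ATP5PO, COX5A, COX8A, NDUFA10, NDUFB10, NDUFS6, NDUFV1, NDUFV2, SDHD and UQCRH. They included COX8A and ATP5MPL, which had the smallest p after ATP5MC1 in this comparison. NDUFV2, SDHD, NDUFB10 and UQCRH lay below 0, the last 2 with log2 fold changes of -0.045 and -0.013. For ETS, the median was 0.069 with a match and 0.11 without. The medians with and without a match were 0.079 and 0.084 for NRF1, 0.085 and 0.079 for YY1, and 0.079 and 0.084 for the E-box. None of these splits was tested.

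**Figure D5:**
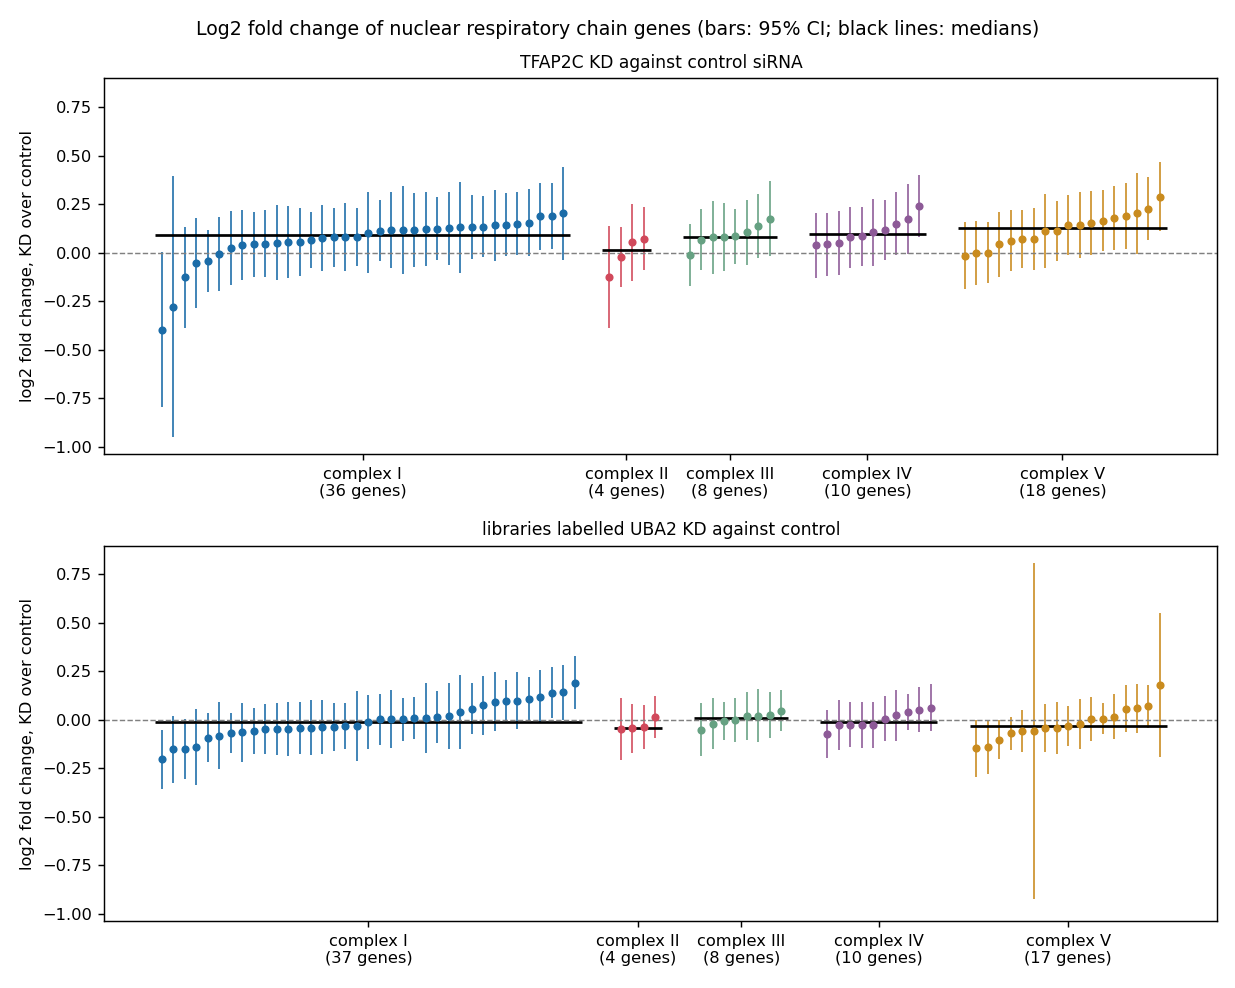
Log2 fold change of each respiratory chain gene tested, with its 95% confidence interval, for TFAP2C KD against control siRNA (top) and the libraries labelled UBA2 KD against control (bottom), sorted within complexes I to V. Black lines are medians, from 0.015 for complex II to 0.13 for complex V at the top and from -0.040 for complex II to 0.0091 for complex III at the bottom.

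In the libraries labelled UBA2 KD, the respiratory chain genes lay on both sides of 0. Only these libraries received doxycycline, so an effect of the drug itself and an effect of the knockdown cannot be told apart. Of the 76 members tested, 35 (46.1%) had a log2 fold change above 0, against 49.9% of the 13381 genes tested in all, and the median was -0.015. At an adjusted p under 0.05, 0 members were called by edgeR's quasi-likelihood test or by the Wald test of DESeq2, whereas 9.98% of all genes were called by the former, 5.52% higher and 4.47% lower. At an unadjusted p under 0.05, 2 members were higher and 3 lower, where 22.7% of all genes lay under that value, 11.7% higher and 11.0% lower. Both libraries labelled UBA2 KD lay above both controls for 14 members and below both for 17, with backgrounds of 25.5% and 25.8%, or 51.3% in either direction. The confidence intervals were narrower than in the other experiment, and 63 of the 76 lay within -0.25 and 0.25 and 74 within -0.5 and 0.5. The members took 0.797% and 0.816% of the counts in the controls and 0.782% and 0.795% in the libraries labelled UBA2 KD.

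Complex I held the largest differences in this comparison, in both directions. NDUFS4 (chromosome 5, 52856465 to 52979171 on hg19), an accessory subunit needed to attach the NADH-oxidizing module, had 46.5 and 48.5 CPM in the controls and 55.6 and 53.0 CPM in the libraries labelled UBA2 KD. The groups did not overlap, and the log2 fold change of 0.19 (95% confidence interval 0.055 to 0.33) did not pass the test (adjusted p = 0.0665, edgeR). NDUFA5 (chromosome 7, 123181083 to 123197958 on hg19), an accessory subunit of the peripheral arm, had 48.5 CPM in both controls and 38.5 and 45.7 CPM in the libraries labelled UBA2 KD. It was lower in both, chiefly in replicate 1, by a log2 fold change of -0.20 (95% confidence interval -0.35 to -0.049, adjusted p = 0.0877, edgeR). Without the library labelled UBA2 KD replicate 2, the value was -0.33 and past the threshold (adjusted p = 0.00269, edgeR), and without replicate 1 it was -0.085 (adjusted p = 0.634, edgeR), each time with the remaining knockdown library taken to vary like the controls. NDUFS8, a core iron-sulfur subunit, had 59.7 and 65.1 CPM and then 69.9 and 67.7 CPM, a log2 fold change of 0.14 (adjusted p = 0.185, edgeR). NDUFS1 had 139 and 132 CPM and then 133 and 139 CPM, so that its groups covered the same range. NDUFV1 had 117 and 119 CPM and then 132 and 122 CPM, and NDUFA4 had 37.2 and 40.1 CPM and then 40.5 and 42.5 CPM, with log2 fold changes of 0.11 and 0.0998. NDUFV2, at 57.8 and 61.1 CPM and then 56.6 and 59.0 CPM in this table, had a log2 fold change of -0.040 from 1019 to 1274 counts per library.

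Complexes II, III and IV stayed within narrow limits in the libraries labelled UBA2 KD. The largest log2 fold changes were -0.046 for SDHC, -0.051 for UQCRFS1 and -0.071 for COX7B, whose groups all overlapped. SDHC had 36.4 and 32.7 CPM in the controls and 32.6 and 34.2 CPM in the libraries labelled UBA2 KD. UQCRFS1 had 65.4 and 66.7 CPM and then 59.6 and 67.9 CPM. COX7B, a small membrane subunit, had 83.7 and 89.7 CPM and then 81.0 and 84.1 CPM. SDHA, SDHB, UQCRC1, COX4I1 and COX5A had log2 fold changes of -0.037, 0.016, 0.048, 0.042 and 0.054, respectively. For these 22 genes, the 95% confidence intervals reached no further than -0.21 and 0.19.

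In complex V, 10 of 17 members tested lay below 0 in the libraries labelled UBA2 KD, with a median of -0.030. ATP5G3, the ATP5MC3 of the other table, had 221 and 222 CPM in the controls and 201 and 211 CPM in the libraries labelled UBA2 KD. It was lower in both, by a log2 fold change of -0.10 (adjusted p = 0.212, edgeR). ATP5J2, subunit f of the membrane part, had 50.9 and 48.9 CPM and then 47.8 and 42.4 CPM, also lower in both, with a log2 fold change of -0.15 (adjusted p = 0.218, edgeR). ATP5G1 and ATP5G2 overlapped, with log2 fold changes of -0.041 and 0.016. ATP5A1 had 662 and 674 CPM and then 628 and 646 CPM, a log2 fold change of -0.069, and ATP5B had 1162 and 1149 CPM and then 1144 and 1177 CPM, a log2 fold change of 0.0065. ATP5S had the largest value of the complex, 0.18, from 67 to 87 counts per library (95% confidence interval -0.19 to 0.55).

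Not every member could be compared. In TFAP2C KD, NDUFA9, ATP5MGL and ATP5MF-PTCD1 had too few counts, and in UBA2 KD, ATP5J2-PTCD1 and ATP5L2 did. ATP5MF-PTCD1 and ATP5J2-PTCD1 are names of the same readthrough gene, and ATP5MGL and ATP5L2 of the same copy of ATP5MG. ATP5IF1, ATP5MD and ATP5MPL entered by symbol only in the table of TFAP2C KD, and ATP5S and ATP5SL only in that of UBA2 KD. ATP5SL is known under its newer name DMAC2 as a factor of complex I assembly, although it is counted here with complex V by its symbol.

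Whether the genes responded differently to the 2 treatments was asked in 1 fit to the 8 libraries together. In it, experiment and annotation cannot be told apart, and neither can doxycycline and the UBA2 knockdown. Of the 73 members tested in both comparisons, 0 had a difference past the threshold (smallest adjusted p = 0.131, edgeR), with a background of 2.25% of 13537 genes. At an unadjusted p under 0.05 there were 11, a share near the 14.4% of all genes in either direction. All 11 had the higher value in TFAP2C KD, but the share of all genes was not split by direction. The difference in log2 fold change, TFAP2C KD less UBA2 KD, was above 0 for 61 of the 73, with a median of 0.081, and for 53.4% of all genes, with a median of 0.018. By complex, the median difference was 0.073 for I, 0.046 for II, 0.081 for III, 0.10 for IV and 0.14 for V. ATP5MC1 had a difference of 0.33 (95% confidence interval 0.11 to 0.56), ATP5MC3 one of 0.26, ATP5MF one of 0.36 and COX8A one of 0.24. In their own comparisons, 29 lay above 0 in both, 33 above 0 in TFAP2C KD and below in the libraries labelled UBA2 KD, 5 the other way round, and 6 below 0 in both. Without TFAP2C KD replicate 2, 10 members passed the threshold in this test, all with the higher value in TFAP2C KD, where 11.8% of all genes passed it. Without TFAP2C KD replicate 1, 0 members and 3.90% of all genes did. In both cases the remaining knockdown library is taken to vary like the other groups.

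Other genes of the same system were followed in TFAP2C KD as lists. Over all genes tested there, 0.74% were called, 49.1% lay above 0 and the median was -0.0038. Of 52 assembly factors, which build the complexes, 0 were called and 34 were above 0, with a median of 0.050. COA7 and COX20, factors of complex IV assembly, had log2 fold changes of 0.28 and 0.32, each with both knockdown libraries above both controls (adjusted p = 0.164 and adjusted p = 0.170, edgeR). The 13 subunits encoded by mitochondrial DNA had a median of 0.057, with 12 above 0 and 0 called, and MT-ND3 had 1353 and 1435 CPM with control siRNA and 1556 and 1492 CPM in TFAP2C KD. Among 13 genes of electron carriers, 11 lay above 0 (median 0.053), and among 13 regulators of mitochondrial genes, 9 did (median 0.051), with 0 called in each. The mitochondrial ribosomal proteins, with 65 of 74 above 0 and a median of 0.087, and the cytosolic ribosomal proteins, with 74 of 81 above 0 and a median of 0.098, had medians as high as the respiratory chain. In the latter list 1 gene was called, RPL41, which rose by a log2 fold change of 0.58 (adjusted p = 0.0368, edgeR). Of 6 further subunits and isoforms tested, 4 lay above 0 and 2 below, with a median of 0.12 and 0 called. CYC1, the cytochrome c1 of complex III, and NDUFAB1, the acyl carrier subunit of complex I, had log2 fold changes of 0.15 and 0.14. The lowest value in this list was -0.55.

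In the libraries labelled UBA2 KD, 2 of 52 assembly factors rose and 0 fell, with a median of 0.014. TTC19, a factor of complex III assembly, had 91.0 and 93.1 CPM in the controls and 112 CPM in both libraries labelled UBA2 KD, a log2 fold change of 0.28 (adjusted p = 0.000865, edgeR). NDUFAF2, which acts late in complex I assembly, had 15.4 and 13.9 CPM and then 18.8 and 17.8 CPM, a log2 fold change of 0.32 (adjusted p = 0.0359, edgeR). COQ4, needed to make ubiquinone, was the 1 of 13 electron carrier genes called, with 24.2 and 24.6 CPM in the controls and 29.9 and 28.4 CPM in the libraries labelled UBA2 KD (log2 fold change 0.25, adjusted p = 0.0440, edgeR). Of 72 mitochondrial ribosomal proteins, MRPS10 and MRPL24 rose by log2 fold changes of 0.32 and 0.25, and MRPL49 fell by 0.23 on the log2 scale (adjusted p = 0.000406, 0.00470 and 0.00746, edgeR). The list had a median of -0.0081, with 31 above 0. Of 81 cytosolic ribosomal proteins, 4 rose and 0 fell, 63 lay above 0 and the median was 0.050. Of 12 regulators of mitochondrial genes, 0 were called (median 0.035), as were 0 of 9 further subunits and isoforms (median 0.013). At the background of 9.98%, the counts of called genes in the lists of assembly factors, electron carriers and ribosomal proteins lay below the share of all genes. Genes encoded by mitochondrial DNA are not listed in this table.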

How the data were processed

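Per the labels, processing used TopHat2, HTSeq 0.9.1 and hg19. The authors deposited 1 table per experiment with raw read counts per gene, not normalized, and no strand setting is given in the sources used here. Positions in the table of TFAP2C KD are those of GRCh38. The total counts were 20785035 to 24465109 and 18213739 to 20607813 per library, and edgeR estimated a biological coefficient of variation of 6.28% and 3.56%. In R 4.3.3, each table was filtered with filterByExpr, scaled by TMM and tested whole with the quasi-likelihood test of edgeR 4.0.16, two-sided, without a replicate term, and p-values were adjusted by Benjamini-Hochberg over all genes tested. CPM use TMM-scaled library sizes, and intervals are at 95%. For the difference between experiments, 21257 shared symbols and 510 renamed genes were joined. Overlapping rows were those of at least 0.5 kb spanning at most 300000 bases. Genes named were the largest change of each complex, members fixed by role, up to 12 members called (there were 0) and up to 3 genes of each list by adjusted p. NDUFV3, NDUFS6, NDUFS4, NDUFS8, ATP5MPL, ATP5PO, ATP5PB, ATP5G3, ATP5J2 and the genes named for their level, overlap, motif or difference were added after their values had been seen. Members and lists were chosen with earlier results of these data known. The code was tested on simulated data.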

Additional observations from a re-analysis of the deposited data

How the results depend on the processing

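The replicate numbers are shared by the groups, but nothing says that they pair the libraries, and the replicate differences correlated by -0.139 in TFAP2C KD and by 0.074 in UBA2 KD. With the replicate number as a block, 0 members were called in both comparisons and in the difference between them, and the members' median was 0.084 for TFAP2C KD and -0.014 for UBA2 KD. A crossed block in TFAP2C KD, chosen after seeing the data, called ATP5MC1 and COX8A higher (adjusted p = 0.0196 and 0.0457, edgeR), 2 members among 467 genes in all, where the replicate block called 172 in all.

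DESeq2 size factors, the Wald test of DESeq2 1.42.0 and a TFAP2C KD fit without mitochondrially encoded genes moved no count or median of the members beyond its replicate spread. In TFAP2C KD, 1 member, ATP5MC1, was called higher without a filter (adjusted p = 0.0475, edgeR), among 398 genes called in all. Library size only moved the median of all genes there to -0.032 and gave medians of 0.055 for all members, -0.014 for complex II and 0.052 for complex III. In the libraries labelled UBA2 KD, library size only called 1 member lower (NDUFA5, adjusted p = 0.0401, edgeR), moved the median of all genes to -0.026 and gave medians of -0.041 for all members, -0.035 for complex I, -0.066 for complex II and -0.056 for complex V. There, ATP5B, ATP5G2, NDUFS1 and SDHB turned to -0.019, -0.0100, -0.022 and -0.0100. At least 10 counts in every library gave -0.026 for complex V. The fit of all 8 libraries gave -0.053 for complex II and -0.043 for complex V, with ATP5B at -0.0058 and NDUFS1 at -0.0087. Leaving out 1 library at a time gave from 0 to 24 members called higher and from 0 to 3 lower in TFAP2C KD, from 0 to 1 lower in the libraries labelled UBA2 KD and from 0 to 10 in the difference, where 0.898% to 11.8% of all genes were called. The medians then ranged from 0.042 to 0.14 in TFAP2C KD (complex I 0.043 to 0.12, II -0.015 to 0.033, III 0.033 to 0.15, IV 0.048 to 0.14, V 0.048 to 0.18). They ranged from -0.028 to 0.0069 in the libraries labelled UBA2 KD (complex I -0.032 to 0.0073, II -0.037 to -0.0077, III -0.028 to 0.045, IV -0.029 to 0.039, V -0.048 to -0.011) and from 0.050 to 0.13 in the difference. Single genes changed sign when 1 library was left out. In TFAP2C KD these were ATP5F1B (-0.016 to 0.16), COX4I1 (-0.0043 to 0.16), SDHD (-0.32 to 0.058) and UQCRC1 (-0.0028 to 0.14). In the libraries labelled UBA2 KD they were SDHC (-0.12 to 0.032), ATP5B (-0.013 to 0.027), ATP5G1 (-0.094 to 0.018), ATP5G2 (-0.0012 to 0.034), NDUFS1 (-0.030 to 0.039), UQCRFS1 (-0.15 to 0.041), COX5A (-0.0026 to 0.11) and SDHB (-0.0069 to 0.0398). Over all genes, 111 were called in TFAP2C KD and 85 to 467 under the other settings, or 49 to 2825 with 1 library left out. In UBA2 KD, 1336 were called, and 673 to 1503 or 833 to 1271, respectively. The cause of these changes was not tested.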
